A study of Homo sapiens with 9 samples.

Results

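PIR and 9 further genes that are known targets or partners of the transcription factor NRF2, and that stand outside its main glutathione, thioredoxin, haem and NADPH programmes, were followed in sulforaphane-treated lymphoblastoid cells. The list comprised PIR, EPHX1, UGDH, CBR1, CBR3, RIT1, OSGIN1, RXRA, AIFM2 and TRIM16L. A gene counted as measured when the array annotation gave it a transcript cluster (the set of probes summarised as 1 gene) that carried no other symbol. Of the 10 genes, 8 had such a cluster, each exactly 1, among 14232 genes with a single-symbol cluster. CBR3 shared its cluster with DOP1B and TRIM16L shared its cluster with TRIM16, so these 2 genes were not measured.

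The cells were GM12878, a human B-lymphoblastoid line immortalised with Epstein-Barr virus, grown in 15% serum from a density of 900000 cells per ml. Cultures were left untreated (0 h) or received 10 µM D,L-sulforaphane for 8 h or 24 h, with 3 cultures and 3 Affymetrix Human Exon 1.0 ST arrays in each group. The arrays used as controls were labelled as untreated cultures at 0 h. Sulforaphane, known from broccoli, is an electrophilic isothiocyanate. The treatment protocol names 0.1% DMSO as vehicle, but DMSO-only cultures were not analysed here, so hours in culture and sulforaphane exposure changed together and cannot be told apart. All groups came from 1 line, and the labels do not say that the cultures of a group were grown on separate days, so p-values measure the spread between these cultures.

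NRF2 (encoded by NFE2L2) is held in the cytoplasm and marked for destruction by KEAP1. Electrophiles such as sulforaphane modify cysteines of KEAP1, upon which NRF2 accumulates, pairs with a small MAF protein and binds antioxidant response elements near its target genes. In B cells, as in other cells, its best known outputs are haem breakdown, glutathione synthesis and the reduction of oxidised or electrophilic molecules. The genes described here sit at the edge of that programme. EPHX1, UGDH, CBR1 and AIFM2 encode enzymes that act, in that order, on epoxides, UDP-glucose, carbonyl compounds and coenzyme Q. PIR, RIT1, OSGIN1 and RXRA encode proteins that act in gene regulation, signalling or growth control.

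The antioxidant response element core, TGACNNNGC, was looked up in RefSeq promoter windows (build GRCh38.p14, 250 bases before to 50 bases after an annotated start). All 8 measured genes matched the table by symbol, with 12 windows in all, since EPHX1 has 3 annotated starts and RIT1 and RXRA have 2 each. The matches are printed below because they show which of the genes carry the element's letters beside a start. Each is given with 10 bases on either side, 5′ to 3′ on the strand of the gene, and capitals mark the match to the core.
PIR: gccgcgaagcGCTGAGTCAcggtgaggct
AIFM2: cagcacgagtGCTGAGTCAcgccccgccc
RXRA, start 1: gcggcgctgcGCCGAGTCAgcgcccgtcg
RXRA, start 2: tgcagctcctGCTGGGTCActtgcctgcc
CBR1: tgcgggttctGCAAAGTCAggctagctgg
EPHX1, start 3: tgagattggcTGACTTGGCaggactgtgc

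PIR (chrX:15493289-15493317, minus strand) and AIFM2 (chr10:70132829-70132857, minus strand) held the same 9 letters, which read TGACTCAGC on the opposite strand of the gene. In PIR the match lay at bases 27 to 35 after the start, and in AIFM2 at bases -22 to -14. The RXRA matches (chr9:134326310-134326338 and chr9:134379046-134379074, plus strand) lay at -135 to -127 and at -239 to -231 of their starts. The CBR1 match (chr21:36069855-36069883, plus strand) lay at -159 to -151, and the EPHX1 match (chr1:225825266-225825294, plus strand) at -78 to -70. No match to these letters was in the windows of UGDH, RIT1 and OSGIN1. Searched on both strands, the core was in 6 of the 12 windows, or 5 of 8 genes, against 13.3% of all 35116 windows and 16.1% of the 27305 genes in the table. TGACTCAGC, which is 1 form of the core, was in 2 of the 8 genes and in 0.689% of all genes. A match describes letters in a window and is not evidence of binding.

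**Figure D1:**
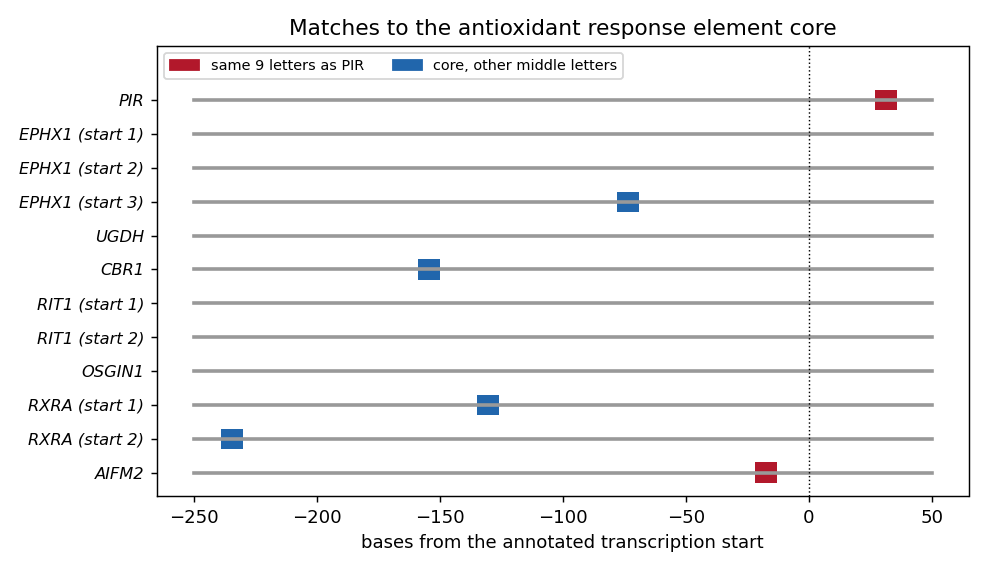
Position of matches to the antioxidant response element core in the promoter windows of the 8 measured genes. The horizontal axis is the distance in bases from the annotated start (dotted line), each grey line is 1 window, and coloured boxes are matches. PIR carries its match after the start, at bases 27 to 35, and AIFM2, with the same 9 letters, just before it.

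Values are log2 RMA signals, on which a difference of 1 is a doubling, and changes are log2 differences with standard errors from a limma fit over all 9 arrays and 22011 clusters. A gene was called when its p-value, adjusted by Benjamini-Hochberg over all clusters, was below 0.05. Mean signals per array lay between 7.97 and 8.14. Untreated replicate 2 stood apart, at 54.4 on the first principal component against -29.9 to 16.4 for the other 8 arrays, so results that rest on it are also given without it. All 12 B-cell markers used had a mean signal above the upper quartile of all clusters (9.49), whereas 0 of 6 T-cell, 0 of 3 myeloid and 0 of 3 erythroid markers with a cluster had one above the median. Of 5 fibroblast markers 1, and of 5 epithelial markers 2, lay above the median. The summed log2 signal of the 6 T-cell markers was 9.71 to 9.90 at 0 h, 9.53 to 9.65 at 8 h and 9.65 to 9.76 at 24 h. That of the 3 myeloid markers was 8.42 to 8.51 at 0 h, 8.20 to 8.34 at 8 h and 8.18 to 8.37 at 24 h. The T-cell sum was lower at 8 h, and the myeloid sum at 8 h and at 24 h, than at 0 h without overlap. The summed signal of the 5 epithelial markers was 11.69 to 11.80 at 0 h, 11.56 to 11.90 at 8 h and 11.47 to 11.63 at 24 h, lower at 24 h than at 0 h without overlap. The part of these markers in the results was not tested. The B-cell sum overlapped in all groups (15.96 to 16.07 at 0 h, 15.98 to 16.01 at 8 h and 15.97 to 16.05 at 24 h). Each signal averages over a culture, so fewer cells of a kind and less RNA per cell cannot be told apart.

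PIR was the gene of this group that was called higher at both times. It encodes pirin, an iron-binding nuclear protein of the cupin superfamily that acts as a co-regulator of NF-kB. Its signals were 6.74, 6.49 and 6.65 in untreated cultures, 7.48, 7.45 and 7.47 after 8 h, and 7.49, 7.58 and 7.65 after 24 h. All 6 treated arrays lay above all 3 untreated ones, and the 3 arrays at 8 h were almost equal. These were dim signals, below the median signal of every array, the lowest of which was 7.99. At 8 h PIR averaged 7.47 ± 0.016, against 6.63 ± 0.13 untreated (SD, n = 3 each). The rise was 0.84 ± 0.08 or 1.79-fold (95% interval 0.66 to 1.02, adjusted p = 0.0066).

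After 24 h PIR averaged 7.57 ± 0.081, against 6.63 ± 0.13 untreated (SD, n = 3 each). The rise was 0.94 ± 0.08 or 1.92-fold (95% interval 0.77 to 1.12, adjusted p = 0.0031). The 24 h level was not separable from the 8 h level in the test of that difference, which was 0.11 ± 0.08 (95% interval -0.07 to 0.28, adjusted p = 0.69). By p-value PIR (cluster 4000560) ranked 13th of all clusters at 8 h and 12th at 24 h. PIR was listed with earlier results of these data known, so its rank is a description.

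The size of the PIR change moved little with the arrays in the fit. Without 1 array in turn it was between 0.77 and 0.89 at 8 h and between 0.88 and 1.00 at 24 h, and without untreated replicate 2 it was 0.77 (adjusted p = 0.011) and 0.88 (adjusted p = 0.0055). The call at 8 h was lost without untreated replicate 3 (0.85 ± 0.09, adjusted p = 0.054). With only the 2 groups compared in the fit the call was lost at 8 h (adjusted p = 0.076) and at 24 h (adjusted p = 0.051), at the same differences of 0.84 and 0.94.

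At 8 h PIR was the 1 called gene of 8, and it was higher, while 0 of the 8 were called lower. At an unadjusted p below 0.05, limma had 1 higher (PIR) and 1 lower (CBR1). Over all 22011 clusters 0.595% were called at 8 h (0.268% higher and 0.327% lower), and 8.55% were higher and 6.57% lower at an unadjusted p below 0.05. The 8 h arrays lay above the untreated ones without overlap in PIR and AIFM2 and below them in CBR1 and RXRA. Of all clusters 17.6% had no overlap at 8 h, 9.06% above and 8.55% below. The median difference of the 8 genes was 0.05, against -0.01 for all clusters.

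At 24 h PIR was again the 1 called gene of 8, and 0 were called lower. At an unadjusted p below 0.05, 5 of the 8 were higher (PIR, EPHX1, UGDH, RIT1 and AIFM2) and 0 were lower. Over all clusters 1.62% were called at 24 h (0.831% higher and 0.791% lower), and 13.9% were higher and 6.45% lower at an unadjusted p below 0.05. The 24 h arrays of the same 5 genes lay above the untreated ones without overlap, and the other 3 genes overlapped. Of all clusters 24.3% had no overlap at 24 h, 15.6% above and 8.75% below. The median difference of the 8 genes was 0.21, against 0.02 for all clusters. Without untreated replicate 2 the 24 h differences were 0.88 for PIR, 0.41 ± 0.19 for UGDH and 0.39 ± 0.11 for RIT1. In that fit they were 0.23 ± 0.10 for EPHX1 and 0.18 ± 0.08 for AIFM2, and PIR was the 1 called gene. The unadjusted count of that fit is not given here, so the count of 5 may rest on that array. The 8 h and 24 h comparisons share the untreated arrays.

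**Figure D2:**
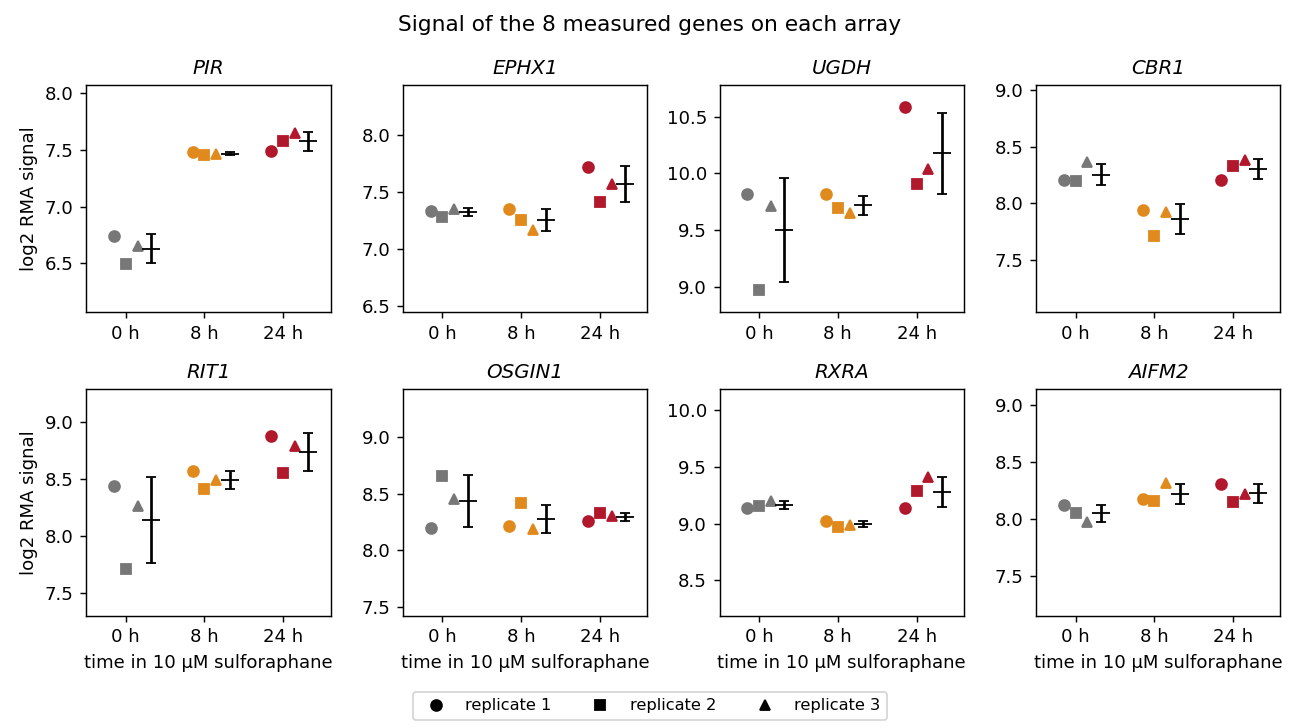
Signals of the 8 measured genes on each array. The vertical axes are log2 RMA signal, all spanning 2 log2 units, the horizontal axes give hours in sulforaphane, symbols are replicates, and black bars are the mean and SD of 3 arrays. PIR lies between 6.49 and 6.74 in untreated cultures and between 7.45 and 7.65 on the 6 treated arrays, with no overlap, and untreated replicate 2 (grey square) is the lowest array for UGDH and RIT1.

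Of the 4 enzyme genes UGDH had the largest difference at 24 h, without a call. UGDH oxidises UDP-glucose to UDP-glucuronate, the donor for glucuronidation and for glycosaminoglycan chains. Its signals were 9.81, 8.98 and 9.71 in untreated cultures, 9.81, 9.70 and 9.65 after 8 h, and 10.58, 9.91 and 10.04 after 24 h. The 3 arrays at 24 h lay above all others, with 24 h replicate 1 highest and untreated replicate 2 lowest. The difference at 24 h was 0.68 ± 0.24 (95% interval 0.12 to 1.23, adjusted p = 0.19). Without untreated replicate 2 it was 0.41 ± 0.19 (adjusted p = 0.36), and without 24 h replicate 1 it was 0.47 ± 0.23 (adjusted p = 0.48). At 8 h the difference was 0.22 ± 0.24 (adjusted p = 0.67), and it was -0.040 ± 0.19 without untreated replicate 2 (adjusted p = 0.97).

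EPHX1, the microsomal hydrolase that opens epoxides to diols, had its highest arrays at 24 h. Its signals were 7.33, 7.28 and 7.35 in untreated cultures, 7.35, 7.25 and 7.16 after 8 h, and 7.72, 7.41 and 7.57 after 24 h. The 24 h arrays lay above both other groups, which overlapped each other. The difference was -0.07 ± 0.09 at 8 h (adjusted p = 0.72, and -0.12 to -0.022 without single arrays) and 0.25 ± 0.09 at 24 h (95% interval 0.04 to 0.45, adjusted p = 0.19). From 8 h to 24 h it was 0.32 ± 0.09 (95% interval 0.11 to 0.52, adjusted p = 0.25).

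CBR1, an NADPH-dependent reductase of carbonyl compounds, was lowest at 8 h. Its signals were 8.20, 8.20 and 8.36 in untreated cultures, 7.94, 7.71 and 7.93 after 8 h, and 8.21, 8.33 and 8.38 after 24 h. All 3 arrays at 8 h lay below the other 6, and the 0 h and 24 h arrays overlapped. CBR1 averaged 7.86 ± 0.13 at 8 h, against 8.25 ± 0.095 untreated (SD, n = 3 each). The difference was -0.39 ± 0.09 (95% interval -0.60 to -0.19, adjusted p = 0.094), short of a call. At 24 h it was 0.05 ± 0.09 (95% interval -0.15 to 0.25, adjusted p = 0.73), a sign that turned to -0.022 after a further quantile normalization and to -0.012 after centring on array medians. Without single arrays it was between 0.015 and 0.11. From 8 h to 24 h the difference was 0.45 ± 0.09 (95% interval 0.24 to 0.65, adjusted p = 0.12). With array weights estimated gene by gene, CBR1 was called at 8 h (-0.41, adjusted p = 0.019) and from 8 h to 24 h (0.44, adjusted p = 0.013). Those weights called 1703 and 1325 of the 22011 clusters in these comparisons, against 131 and 72 without weights.

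AIFM2 encodes FSP1, which reduces coenzyme Q at the plasma membrane and so limits lipid peroxidation and ferroptosis. Its signals were 8.12, 8.06 and 7.97 in untreated cultures, 8.17, 8.16 and 8.32 after 8 h, and 8.31, 8.15 and 8.22 after 24 h. All 6 treated arrays lay above the 3 untreated ones, by a narrow margin. The difference was 0.17 ± 0.07 at 8 h (95% interval -0.00 to 0.34, adjusted p = 0.34) and 0.18 ± 0.07 at 24 h (95% interval 0.01 to 0.35, adjusted p = 0.24). PIR and AIFM2 hold the same 9 letters beside their starts, and their differences at 24 h were 0.94 and 0.18, the second without a call. The part of these letters in either difference was not tested.

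Among the regulatory genes, RIT1, a GTPase of the RAS family, had a difference of 0.60 ± 0.18 at 24 h (95% interval 0.20 to 1.01, adjusted p = 0.14). Its signals were 8.44, 7.71 and 8.26 in untreated cultures, 8.57, 8.41 and 8.49 after 8 h, and 8.88, 8.56 and 8.79 after 24 h. The 24 h arrays lay above the untreated ones, the 8 h arrays overlapped both groups, and untreated replicate 2 was the lowest of all. Without untreated replicate 2 the difference was 0.39 ± 0.11 at 24 h (adjusted p = 0.15). At 8 h it was 0.35 ± 0.18 (adjusted p = 0.39), and 0.14 ± 0.11 without that array (adjusted p = 0.66). With array weights estimated gene by gene, RIT1 was called at 24 h (0.48, adjusted p = 0.028). Those weights called 1889 of the 22011 clusters at 24 h, against 357 without weights.

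RXRA is the retinoid X receptor alpha, the shared partner of many nuclear receptors, and it is known to bind NRF2 and to lower its activity. Its signals were 9.14, 9.15 and 9.20 in untreated cultures, 9.02, 8.97 and 8.99 after 8 h, and 9.14, 9.29 and 9.41 after 24 h. The 8 h arrays lay below all others, and the 24 h arrays overlapped the untreated ones. The summed T-cell markers, of which 0 of 6 lay above the median in this B-cell line, were lowest at 8 h as well. A relation of that sum to the CBR1 and RXRA values was not tested. The difference was -0.17 ± 0.07 at 8 h (95% interval -0.34 to 0.00, adjusted p = 0.33) and 0.12 ± 0.07 at 24 h (adjusted p = 0.38), the second of which was -0.0077 after a further quantile normalization, 0.052 without 24 h replicate 3 and 0.18 without 24 h replicate 1. From 8 h to 24 h it was 0.28 ± 0.07 (95% interval 0.11 to 0.45, adjusted p = 0.22).

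OSGIN1, a growth inhibitor known to be induced by oxidative stress, showed no separation of the groups. Its signals were 8.20, 8.65 and 8.45 in untreated cultures, 8.22, 8.42 and 8.19 after 8 h, and 8.25, 8.33 and 8.30 after 24 h. The 3 groups overlapped, with the widest spread among the untreated arrays. The difference was -0.16 ± 0.12 at 8 h (95% interval -0.43 to 0.11, adjusted p = 0.53) and -0.14 ± 0.12 at 24 h (95% interval -0.41 to 0.13, adjusted p = 0.48). Without untreated replicate 2 these differences were -0.048 and -0.029, and without untreated replicate 1 they were -0.28 and -0.26, with no call in either case. A rise as large as that of PIR at 24 h lay outside this interval.

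**Figure D3:**
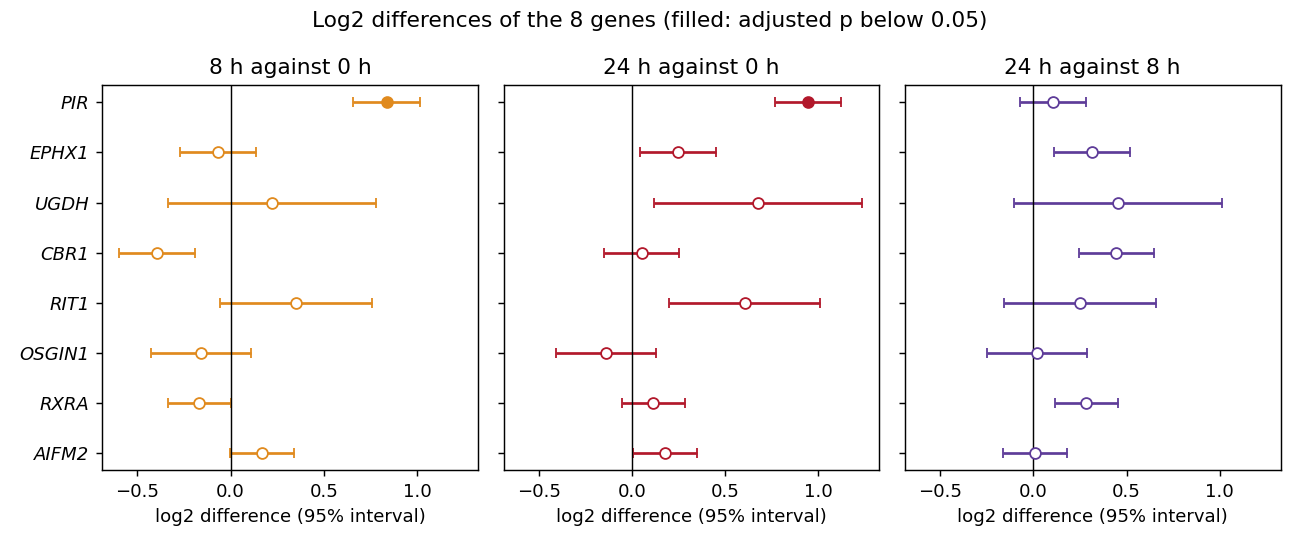
Log2 differences of the 8 measured genes in the 3 comparisons, with 95% intervals from limma. The vertical axis lists genes, the horizontal axis is the log2 difference, and filled points are called at an adjusted p below 0.05. PIR is filled at 8 h and at 24 h against 0 h, and no point is filled from 8 h to 24 h.

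The comparison of 24 h with 8 h asked whether the genes went on changing. None of the 8 was called with limma, against 0.327% of all clusters (0.1% higher and 0.227% lower), while 3 (EPHX1, CBR1 and RXRA) were higher at an unadjusted p below 0.05 and 0 were lower, against 6.91% of all clusters higher and 3.45% lower. The same 3 were called with array weights estimated gene by gene, which called 1325 of the 22011 clusters in this comparison, against 72 without weights. Without weights all 8 differences were positive, with a median of 0.27 against 0.02 for all clusters. Those of OSGIN1 (0.02) and AIFM2 (0.01) turned negative after a further quantile normalization or centring on array medians. In EPHX1, CBR1, RXRA, UGDH and PIR the 24 h arrays lay above the 8 h arrays without overlap. Of all clusters 21.6% had no overlap in this comparison, 15.2% above and 6.4% below.

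Level order over the 3 times therefore took several forms. In PIR the untreated level was lowest, and the 24 h arrays lay narrowly above the 8 h arrays, a difference that did not pass the limma test. In CBR1 and RXRA the 8 h level was lowest, with untreated and 24 h levels that overlapped. In EPHX1 and UGDH the 24 h level was highest and the other levels overlapped. In OSGIN1 no neighbouring levels were separated. Of these orders, the calls with limma cover PIR at each time against 0 h.

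The differences of UGDH and RIT1 were smaller without untreated replicate 2. That array was 0.79 lower than the mean of the other untreated arrays for UGDH and 0.64 lower for RIT1, against 0.21 lower for PIR and a median of 0.03 lower over all clusters. OSGIN1 was 0.33 higher on it.

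The wider NRF2 pathway served as a yardstick, with a list of 51 regulators and targets that left out the 10 genes above. Of the list 34 had a cluster of their own, and NFE2L2 and NQO1 were among those without one. At 8 h 4 of the 34 rose, 0 fell and 30 did not pass, and 14 were higher and 0 lower at an unadjusted p below 0.05. Over all clusters 0.268% were called higher and 0.327% lower at 8 h. At the unadjusted threshold, 8.55% of all clusters were higher and 6.57% lower. HMOX1, which breaks down haem, rose by 3.43 ± 0.09 (adjusted p = 3.5e-06), and FTL, the ferritin light chain, rose by 2.42 ± 0.10 (adjusted p = 0.00011). TXNRD1, which reduces thioredoxin, rose by 0.84 ± 0.11 (adjusted p = 0.022), and the lipase ABHD4 by 0.84 ± 0.14 (adjusted p = 0.046). Among genes called at 8 h, PIR thus changed about as much as TXNRD1 and ABHD4. Their untreated means were 6.63 for PIR, 8.67 for TXNRD1 and 9.63 for ABHD4. ME1 (1.22 ± 0.31) and SLC7A11 (1.07 ± 0.23) had larger differences at 8 h without a call. When 1 array was left out the count of 4 dropped to 2 for untreated replicate 3, for 8 h replicates 1 and 3 and for each array at 24 h, and it was 8 for untreated replicate 1.

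At 24 h 7 of the 34 rose, 0 fell and 27 did not pass, and 15 were higher and 0 lower at an unadjusted p below 0.05. They were HMOX1 (2.74 ± 0.09), FTL (2.03 ± 0.10), the malic enzyme ME1 (1.64 ± 0.31), GCLC of glutathione synthesis (0.94 ± 0.18), ABHD4 (0.80 ± 0.14), the haem transporter SLC48A1 (0.64 ± 0.08) and the glutathione transferase MGST1 (0.58 ± 0.10). Over all clusters 0.831% were called higher and 0.791% lower at 24 h. At the unadjusted threshold, 13.9% of all clusters were higher and 6.45% lower. The list's median difference was 0.14 at 8 h and 0.24 at 24 h. With 1 array left out the count of 7 dropped to 2 for untreated replicate 3 and for 24 h replicates 2 and 3, to 3 for 24 h replicate 1 and for 8 h replicates 1 and 3, and to 4 for untreated replicate 2. From 8 h to 24 h HMOX1 was the 1 called member and fell by 0.69 ± 0.09 (adjusted p = 0.026). Over all clusters 0.227% were called lower in this comparison. The count of 1 became 0 when any treated array or untreated replicate 3 was left out. At an unadjusted p below 0.05, limma had 6 of the 34 higher and 5 lower from 8 h to 24 h. Over all clusters 6.91% were higher and 3.45% lower at that threshold. PIR had no fall like that of HMOX1 in its own comparison of 24 h with 8 h. Promoter windows were found for 27 of the 34 genes, and 13 of the 27 held the core, against 16.1% of all genes with a window.

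Relatives and partners of the 8 genes were also listed, 52 in all, of which 41 were measured. They covered other epoxide hydrolases, carbonyl reductases, RAS-family GTPases, retinoid X and partner receptors, ferroptosis genes, TRIM proteins and the NF-kB genes that pirin acts with. At 8 h 0 of the 41 were called with limma, and 0 were higher and 5 lower at an unadjusted p below 0.05. Over all clusters 0.595% were called at 8 h, and 8.55% were higher and 6.57% lower at the unadjusted threshold. At 24 h TRIM25, a ubiquitin ligase, fell by 0.32 ± 0.06 (adjusted p = 0.046), and the other 40 did not pass. Over all clusters 0.791% were called lower at 24 h. The count of relatives called at 24 h was 0 in all fits without 1 array except those without untreated replicate 2 or 8 h replicate 2. Unadjusted, 4 relatives were higher and 4 lower at 24 h, against 13.9% and 6.45% of all clusters. From 8 h to 24 h 0 were called. Unadjusted, 3 were higher and 1 lower, against 6.91% and 3.45% of all clusters. The median difference of these relatives was -0.02 at 8 h and -0.01 at 24 h, close to that of all clusters.

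The genes most like PIR over the 9 arrays were found by the root mean square difference between profiles, after each gene was centred on its own mean. Of 14231 genes the nearest was COL24A1, a fibrillar collagen, at 0.11 log2 units, against a median of 0.45 for all genes. The next were DSC3, a desmosomal cadherin (0.15), ABHD4 (0.16), ZNF345, a zinc finger protein (0.16), LRP12, a receptor of the LDL receptor family (0.16), and BCO2, which cleaves carotenoids (0.17). COL24A1 had a difference of 0.71 at 8 h (adjusted p = 0.0050) and 0.81 at 24 h (adjusted p = 0.0015). All 6 were called at 24 h, with differences between 0.66 and 0.85, and 4 of them (COL24A1, ABHD4, ZNF345 and BCO2) were called at 8 h. They were picked for this likeness, so their differences are a description. Of the other 7 measured genes RIT1 was nearest to PIR (0.26, rank 181) and CBR1 farthest (0.53, rank 12353).

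**Figure D4:**
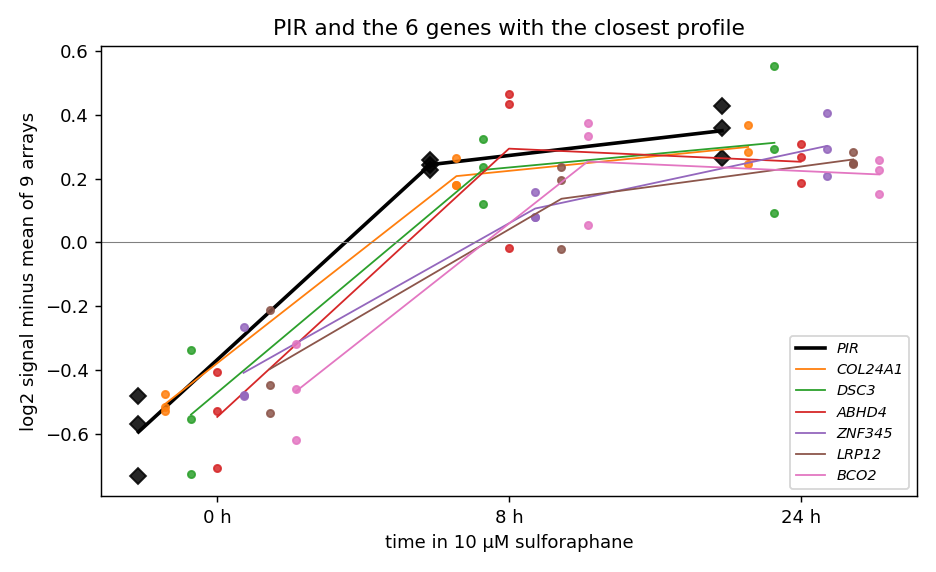
Profiles of PIR and the 6 genes nearest to it over the 9 arrays. The vertical axis is the log2 signal minus the gene's mean over the 9 arrays, the horizontal axis gives hours in sulforaphane, points are arrays and lines join group means. PIR (black) and the other 6 genes have all untreated arrays below 0 and all 24 h arrays above it.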

How the data were processed

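Each array's deposited column holds log2 RMA signals of core transcript clusters. Per the labels and the series' design text, the authors summarised probes with gene-level RMA and sketch-quantile normalization in Affymetrix Expression Console. No software version, annotation release or genome build is given in the sources used here. Arrays give no counts, and their number limits the precision.

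The fit used limma 3.58.1 (R 4.3.3) on all 22011 clusters, with 1 mean per group, all 9 arrays and no covariate. Tests were two-sided and moderated with eBayes, and p-values were adjusted by Benjamini-Hochberg over all clusters within a comparison. Of the clusters 14432 carried 1 symbol, 2408 several and 5171 none. In 38.4% of clusters at least 2 arrays shared a value, EPHX1 and UGDH included, and in 893 clusters all 3 arrays of a group did.

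The members, the pathway and relatives lists and the naming rule were chosen with earlier results of these data known. The rule named all members, called list genes (up to 6 by size in the pathway list, up to 6 by p among relatives) and the 6 genes nearest to PIR. The report names all 7 pathway genes called at 24 h, MGST1 being added after its value was seen. SLC7A11, and ME1 at 8 h, were uncalled and were added for the size of their differences in the same way. TRIM16 was on the rule but had no cluster of its own.

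The fit was tested on simulated data. Of changes of 0.5 log2 units, 36% were recovered at 8 h and 38% at 24 h. At each time 82% of changes of 1 and 100% of changes of 2 were recovered. False calls numbered 8 at 8 h, 12 at 24 h and 1 from 8 h to 24 h, among 22011 clusters. Alternatives were a replicate block, a filter on the dimmest 25% of clusters, quantile normalization, median centring, trended and robust eBayes, array weights, fits of 2 groups, a threshold of 0.01, averaging clusters of 1 symbol and leaving out each array.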

Additional observations from a re-analysis of the deposited data

How the results depend on the processing

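Of 24 member differences under 19 alternatives each, 434 of 456 values kept their direction and side of the threshold, 3 lost a call, 5 gained one and 14 turned sign. The lost calls were those of PIR given above. At 24 h against 0 h, CBR1 turned to -0.022 with quantile normalization and to -0.012 with median centring, and RXRA to -0.0077 with quantile normalization. From 8 h to 24 h, OSGIN1 turned to -0.033 with quantile normalization and -0.021 with median centring. AIFM2 turned to -0.043 with quantile normalization, -0.032 with median centring and -0.011 with gene-by-gene array weights. Without single arrays UGDH ranged from -0.040 to 0.38 at 8 h, and from 8 h to 24 h OSGIN1 ranged from -0.023 to 0.091 and AIFM2 from -0.034 to 0.059.

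The member count was 0 at 8 h and 0 at 24 h in fits of the 2 groups compared. With gene-by-gene array weights, chosen after seeing the data because the planned REML estimate did not converge (its fits were not used), it was 2 at 8 h, 2 at 24 h and 3 from 8 h to 24 h. Without 1 array it was 0 to 1 at 8 h, 1 to 1 at 24 h and 0 to 0 from 8 h to 24 h.

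Clusters called numbered 131 at 8 h, 357 at 24 h and 72 from 8 h to 24 h. Without 1 array these became 9 to 654, 21 to 768 and 4 to 160. They were 390, 560 and 109 with quantile normalization, 1703, 1889 and 1325 with gene-by-gene weights, 9, 20 and 25 in fits of 2 groups, and 19, 24 and 19 at the threshold of 0.01. At 8 h they were 302 without dim clusters and 288 with median centring. With the replicate block they were 85 at 8 h and 44 from 8 h to 24 h. Of 9 same-numbered pairs of arrays, 3 had correlated deviations over 0.1 (range -0.14 to 0.39). Of 18 differently numbered pairs, 3 did as well (range -0.42 to 0.13). The highest values, 0.39 and 0.38, were those of 24 h and 0 h replicates 1 and of 24 h and 0 h replicates 2. The main fit took no pairs, and the block was an alternative. The block changed no member's call. With it the limma adjusted p at 24 h was 0.061 for RIT1 and 0.095 for UGDH, against 0.14 and 0.19 in the main fit. Pathway calls ranged from 2 to 12 at 8 h, 2 to 12 at 24 h and 0 to 4 from 8 h to 24 h over all alternatives, and relatives' calls from 0 to 1, 0 to 3 and 0 to 1. The causes of these changes were not tested.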

Other observations

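A cluster annotated with both TRIM16 and TRIM16L (3746845) and one annotated with both CBR3 and DOP1B (3919834) belong to no comparison above, since each signal may come from either gene. Cluster 3746845 averaged 8.12 ± 0.25 at 8 h and 8.50 ± 0.057 at 24 h, against 8.26 ± 0.020 untreated (SD, n = 3 each). Its difference was -0.14 ± 0.11 at 8 h (adjusted p = 0.57) and 0.24 ± 0.11 at 24 h (adjusted p = 0.27). Cluster 3919834 averaged 5.56 ± 0.14 at 8 h and 5.83 ± 0.11 at 24 h, against 6.04 ± 0.19 untreated (SD, n = 3 each). Its difference was -0.48 ± 0.11 at 8 h (adjusted p = 0.11) and -0.21 ± 0.11 at 24 h (adjusted p = 0.32). Like CBR1, this cluster had its lowest level at 8 h, and neither was called there.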
